A study of Mus musculus with 90 samples.

Results

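In mouse liver, 2715 of the 8546 regions bound by the transcription factor FOXO1 lay in open chromatin and shared no base with a region bound by the glucocorticoid receptor (GR). They were taken from 3 lists of positions on the mouse genome build mm9, as FOXO1 peaks with 0 bp of overlap with any of the 10446 GR peaks and at least 1 bp of overlap with any of the 83592 DNase hypersensitive sites (DHSs). Of the other FOXO1 peaks, 4544 overlapped a GR peak within a DHS, 554 overlapped a GR peak outside DHSs, and 733 overlapped neither. Comparisons below are with the 4544 shared peaks, with 3972 GR peaks in DHSs that had no FOXO1 peak, and with 72289 DHSs that held neither factor.

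Livers came from mice trained to night-restricted feeding (NRF), in which food is withheld in the light phase. NRF and injected mice were 10-week-old C57BL/6N, GR fl/fl mice were on a C57BL/6N and L-IRSdKO mice on a C57BL/6J background, and the lean and obese mice are labelled C57BL/6. FOXO1 was mapped at zeitgeber time (ZT) 14, 2 h into the dark phase, in mice left without the meal, in 2 libraries of pooled livers, and the lists carry no value per mouse. Liver RNA was measured in 5 experiments in libraries that the study lists as single mice. NRF mice without injection were taken at ZT10 and, fed or unfed, at ZT14 (n = 2 per group). Injected wild-type mice at ZT14 were unfed after vehicle, or fed after vehicle, the insulin receptor antagonist S961, the synthetic glucocorticoid dexamethasone (dex) or both agents (n = 4 per group). Unfed GR fl/fl mice received AAV8 virus carrying Cre (L-GRKO) or GFP from the hepatocyte promoter TBG (n = 4 per group). Mice lacking Irs1 and Irs2 in the liver (L-IRSdKO) and floxed controls were fed, and both genotypes received dex at 1 mg/kg (n = 4 per group). Lean chow-fed mice and diet-induced obese mice on a high-fat diet for 10 weeks from the age of 5 weeks were compared fed and unfed at ZT14 (n = 3 per group). Fed animals had access to food from ZT12.

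FOXO1 is a forkhead transcription factor that binds DNA as a monomer at sites with the core TGTTTAC. Insulin acts through the receptor, IRS1 and IRS2, and the kinase AKT, which phosphorylates FOXO1 and moves it out of the nucleus, so that the factor is nuclear mainly in the unfed state. In hepatocytes it is known for driving gluconeogenic and fasting genes, and GR, the receptor for glucocorticoids, is known to bind many enhancers of the same genes.

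Of the 2715 peaks, 1654 (60.9%) held neither of 2 short sequences that recurred in the class, and the others held one or both. The 2 are shown here in the peaks of genes whose RNA is described below. The first set holds the forkhead core TGTTTAC or its reverse complement, in capitals, and the second holds the element ACTACA, 2 bases of any kind, then TCCC, also in capitals. The latter is the sequence that ZNF143 and THAP11 bind at many housekeeping promoters, and it was looked for only after a scan of all words of 8 bases had brought it up. Each line gives the plus strand of mm9 around the centre of the peak, cut at the first annotated exon. The stretches shown, whose ends are not those of the peaks, are chr17:33933356-33933555 for Angptl4, chr6:5446529-5446728 for Pdk4, chr2:24200268-24200467 for Il1rn, chr8:87502653-87502852 for Junb, chr10:84038943-84039142 for Tcp11l2, chr16:55934969-55935022 for Cep97 and chr4:140542645-140542787 for Atp13a2. The centre of each peak lay upstream of its gene's start, by 14936 bp in Angptl4, in intergenic DNA, and by 320, 440, 136, 328, 13 and 43 bp in the others. The start nearest to the Angptl4 peak was that of another gene, 4931413I07Rik, at 10787 bp.
Angptl4: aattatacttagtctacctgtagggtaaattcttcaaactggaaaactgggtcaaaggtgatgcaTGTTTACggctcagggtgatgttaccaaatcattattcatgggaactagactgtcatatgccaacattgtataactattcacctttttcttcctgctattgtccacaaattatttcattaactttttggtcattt
Pdk4: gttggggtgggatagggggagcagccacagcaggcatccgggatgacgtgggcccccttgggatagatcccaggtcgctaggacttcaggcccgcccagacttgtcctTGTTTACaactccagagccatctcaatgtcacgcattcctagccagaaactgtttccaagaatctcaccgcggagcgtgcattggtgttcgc
Il1rn: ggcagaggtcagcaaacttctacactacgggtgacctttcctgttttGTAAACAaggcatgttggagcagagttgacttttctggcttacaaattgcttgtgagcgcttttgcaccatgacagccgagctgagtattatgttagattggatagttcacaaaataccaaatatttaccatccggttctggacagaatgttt
Junb: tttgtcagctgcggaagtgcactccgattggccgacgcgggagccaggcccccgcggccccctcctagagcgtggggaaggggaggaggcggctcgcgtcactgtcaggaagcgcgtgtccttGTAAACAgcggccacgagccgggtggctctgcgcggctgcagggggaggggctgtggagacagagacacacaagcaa
Tcp11l2: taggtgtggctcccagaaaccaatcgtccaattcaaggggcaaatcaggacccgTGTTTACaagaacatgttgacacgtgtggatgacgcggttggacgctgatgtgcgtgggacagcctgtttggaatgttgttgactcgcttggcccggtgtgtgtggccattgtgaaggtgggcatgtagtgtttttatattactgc
Cep97: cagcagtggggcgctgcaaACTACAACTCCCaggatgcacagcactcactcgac
Atp13a2: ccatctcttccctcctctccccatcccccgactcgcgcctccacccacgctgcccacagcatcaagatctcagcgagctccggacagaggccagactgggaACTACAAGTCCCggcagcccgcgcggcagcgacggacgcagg

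The peaks without GR lay at transcript starts far more often than shared peaks, GR peaks without FOXO1 or DHSs with neither. Of the 2715 centres, 1087 (40.0%, 95% Wilson interval 38.2 to 41.9) were within 2 kb of an annotated start, here called promoter members, against 15.8% (14.8 to 16.9) of shared peaks, 16.7% of GR peaks without FOXO1 and 18065 of the 72289 DHSs with neither. Within 100 bp of a start were 496 peaks (18.3%), against 2.44% of shared peaks and 7.77% of DHSs with neither. FOXO1 peaks without GR outside DHSs were as often at promoters, with 314 of 733 within 2 kb (42.8%, 39.3 to 46.4). Within 100 bp were 11.3% of them. The remaining 1628 peaks, called distal members, were intronic (791), intergenic (787) or exonic (50), and 332 were beyond 50 kb of any start. Most promoter members (767, 70.6%, 67.8 to 73.2) had their centre upstream of the start. The intervals are over peaks and cover counting error only, since the lists hold no replicate values.

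**Figure D1:**
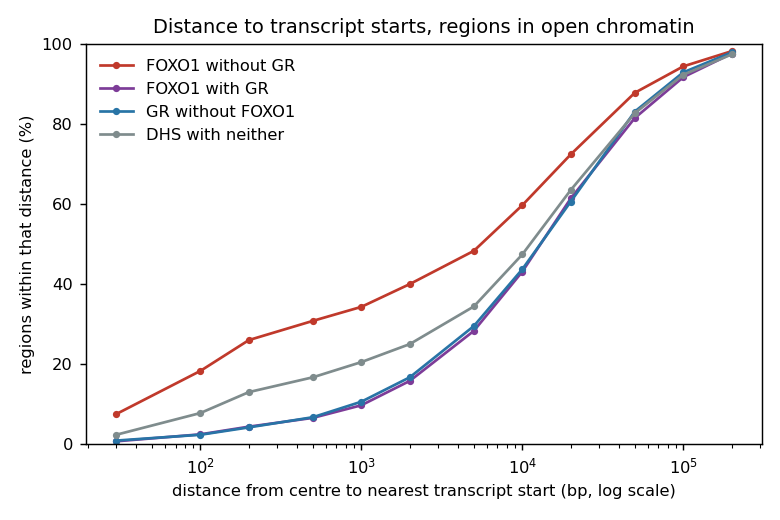
Share of regions (y axis, %) whose centre lies within a given distance (x axis, bp, log scale) of the nearest transcript start, for the 4 classes of regions in open chromatin. The curve for FOXO1 peaks without GR is above the others from the shortest distance and reaches 40.0% at 2 kb, where that for shared peaks is at 15.8%.

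Promoter members were also the part rich in CpG. Their 200-base windows had a median GC content of 55.5% and a median ratio of observed to expected CpG of 0.680, nearer to that of promoter DHSs with neither factor (56.5% and 0.592) than to that of shared promoter peaks (46.0% and 0.231). Promoter FOXO1 peaks without GR outside DHSs were close to them, at 53.0% and 0.625. Distal members had a median GC content of 46.5% and a CpG ratio of 0.205, beside 45.0% and 0.204 in distal shared peaks.

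Forkhead cores were more frequent in distal than in promoter members. The core was in 478 of 1628 distal members (29.4%, 27.2 to 31.6) and in 183 of 1087 promoter members (16.8%, 14.7 to 19.2). Distal shared peaks held it in 14.4% (13.3 to 15.6), promoter shared peaks in 12.1% (9.93 to 14.7), GR peaks without FOXO1 in 2.97% and DHSs with neither in 4.50%. Among all DHSs the core was in 5.17%. The 733 FOXO1 peaks without GR outside DHSs held it in 33.4%, and 151 of the 419 distal ones among them did. At distal sites the share in peaks without GR was therefore higher than in shared peaks with no overlap of the intervals, while at promoters the intervals of the 2 classes touched. The related word TGTTGAC, chosen after a scan of words, was in 12.2% of distal members and in 8.31% of distal shared peaks.

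The ZNF143/THAP11 element was concentrated in FOXO1 peaks without GR at promoters. It was in 379 of 1087 promoter members (34.9%, 32.1 to 37.7) and in 34 of 1628 distal members (2.09%). Among the 4544 shared peaks only 4 (0.0880%) held it, and 0 of the 3972 GR peaks without FOXO1, which allows a share of up to 0.0755%. Promoter DHSs with neither factor held it in 0.316%, and promoter FOXO1 peaks without GR outside DHSs in 26.4%. Seen from the chromatin, 221 of the 281 promoter DHSs with the element (78.6%, 73.5 to 83.0) overlapped one of the 2715 peaks, against 4.26% of the promoter DHSs without it. For the forkhead core the same count was 112 of 606 promoter DHSs (18.5%, 15.6 to 21.8) against 4.88%, and 343 of 3713 distal DHSs (9.24%, 8.35 to 10.2) against 2.17%.

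The 2 sequences rarely met in a peak. Of the promoter members, 172 held the forkhead core only, 368 the element only, 11 both and 536 neither. Of the distal members, 476 held the forkhead core only, 32 the element only, 2 both and 1118 neither. Promoter members with the element sat closest to the start, at a median of 75 bp, those with neither at 134 bp and those with the forkhead core at 272 bp. In the scan of 8-base words that had brought up the element, and which is no separate support for it, GAGTTGTA was in 9.57% of promoter members and 0.293% of promoter DHSs with neither factor, and TGTAAACA in 11.9% of distal members and 2.03% of distal DHSs with neither. A match of letters shows neither which protein was bound nor how the antibody reached the region, and the part of other proteins in these peaks was not tested.

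Both sequences were centred on the peaks. In the 2 bins of 50 bp beside the centre, distal members had 11.8 and 11.5 forkhead cores per 100 peaks and promoter members 5.52 and 7.82. The element stood at 13.4 and 15.7 per 100 promoter members in the same bins.

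**Figure D2:**
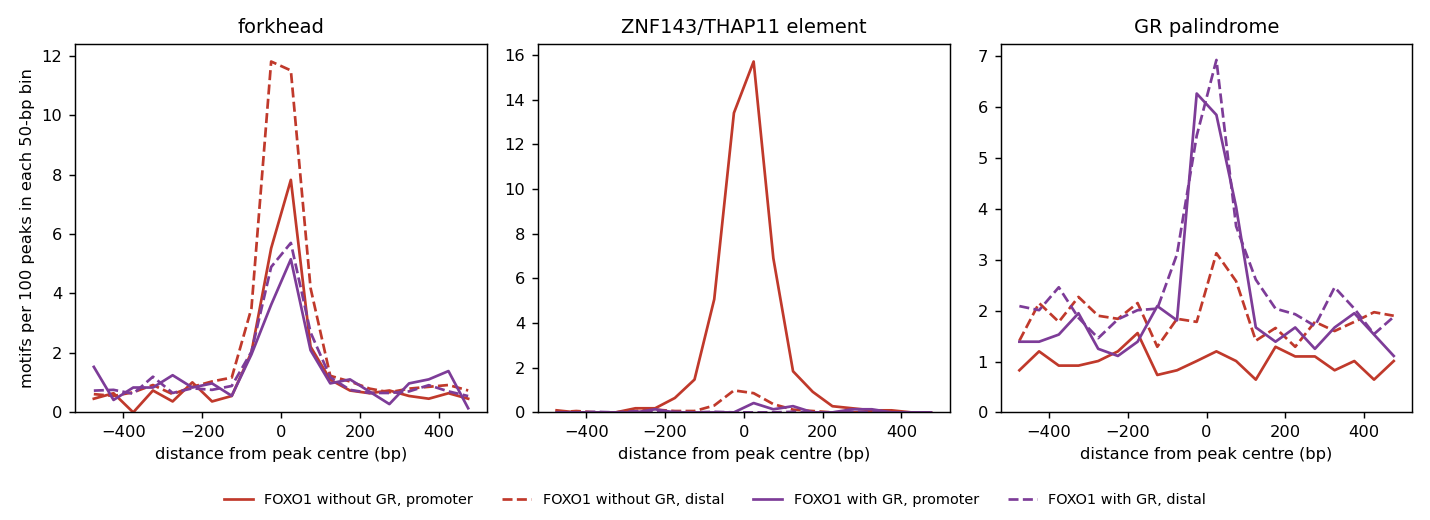
Motifs per 100 peaks (y axis) in bins of 50 bp by distance from the peak centre (x axis, bp) for FOXO1 peaks in open chromatin without GR (red) and with GR (purple), at promoters (solid) and distal sites (dashed). Forkhead cores gather at the centre in each class and reach 11.8 per 100 in distal peaks without GR, the element reaches 15.7 per 100 in promoter peaks without GR, and the GR palindrome peaks at the centre of peaks with GR.

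Sequences bound by GR and by the C/EBP factors were nearer in frequency to open chromatin at large than to the shared peaks. The GR palindrome ACANNNTGT was in 136 distal members (8.35%, 7.11 to 9.80), beside 7.10% of distal DHSs with neither factor, 17.0% (15.9 to 18.2) of distal shared peaks and 19.3% of distal GR peaks without FOXO1. The C/EBP core TTGCNNAA was in 18.3% (16.5 to 20.3) of distal members, against 33.8% (32.4 to 35.4) of distal shared peaks and 15.6% of distal DHSs with neither. The HNF4 word CAAAGTCCA, bound by a nuclear receptor that marks hepatocyte enhancers, was in 3.01% (2.28 to 3.96) of distal members and 2.48% (2.04 to 3.03) of distal shared peaks, which did not differ beyond their intervals, and both were above the 1.28% of distal DHSs with neither.

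At promoters, motifs of general promoter factors were more frequent than in the shared peaks. The SP/KLF core GGGCGG was in 28.5% (25.9 to 31.3) of promoter members, in 31.5% of promoter DHSs with neither and in 4.60% of promoter shared peaks. The ETS core CCGGAAG was in 11.7% (9.91 to 13.7), against 6.56% and 1.11%. The NRF1 word GCGCNTGCG was in 6.53% (5.21 to 8.16), against 5.26% and 0.557%. The STAT word TTCNNNGAA was in 10.6% of promoter members against 4.70% of promoter DHSs with neither, but it can overlap the ZNF143/THAP11 element, and 75 of the 115 promoter members with it held that element too.

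**Figure D3:**
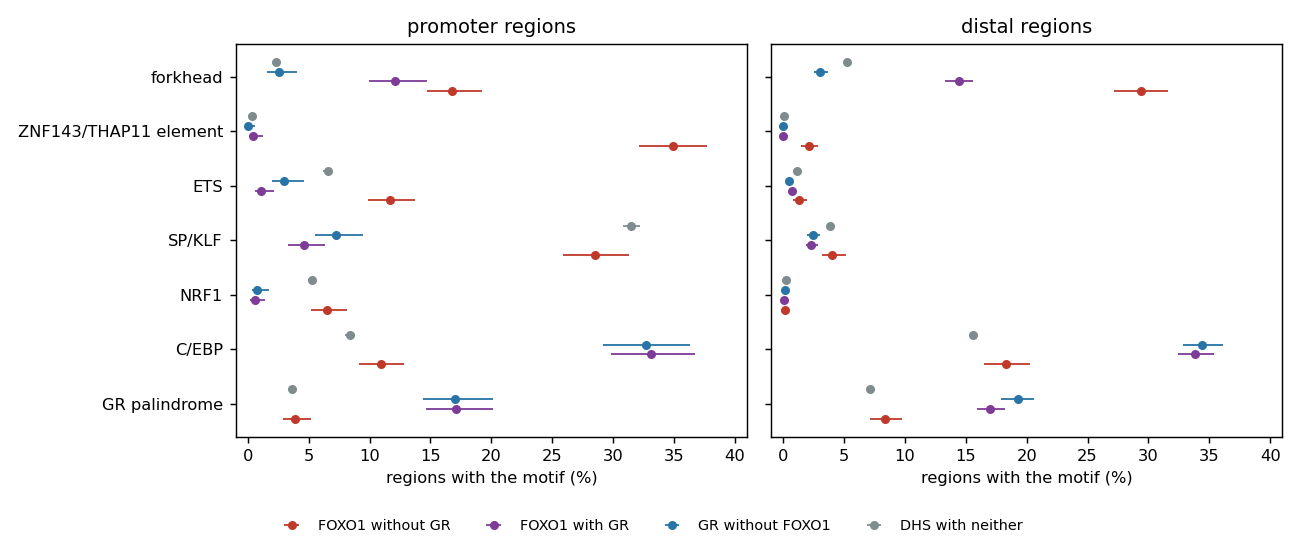
Share of regions (x axis, %) with each motif in 200 bases around the centre, at promoters (left) and distal sites (right), with 95% Wilson intervals as bars. FOXO1 peaks without GR stand above the other classes for forkhead at distal sites (29.4%) and for the ZNF143/THAP11 element at promoters (34.9%), and beside DHSs with neither factor for the GR palindrome.

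The rule has 2 edges, which few peaks sat on. The nearest GR peak was at most 100 bp away for 66 of the 2715 peaks and at most 1000 bp away for 247, with a median gap of 32257 bp (quartiles 6304 and 115750). On the other side of the edge, 34 of the 4544 shared peaks overlapped their GR peak by at most 20 bp. The overlap with a DHS had a median of 119 bp, with 135 peaks at 20 bp or less, and 128 of the 733 peaks left outside DHSs had a DHS within 20 bp.

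Peaks without GR had another of their own class nearby less often than shared peaks did. Within 12.5 kb of 340 of them (12.5%, 11.3 to 13.8) lay another of the class, against 36.4% (35.0 to 37.8) for shared peaks and 19.8% for GR peaks without FOXO1. The classes differ in size, with 2715, 4544 and 3972 peaks, and these shares were not adjusted for it. A shared peak lay within 12.5 kb of 488 of the 2715. By chromosome they ran from 20.4 per 1000 DHSs on X to 43.0 on 7, except for Y, where 27 peaks met 110 DHSs (245 per 1000). The mappability of Y was not tested. Without Y, a choice made after seeing the data, 2688 peaks remained, of which 40.4% were at promoters and 24.6% held the forkhead core.

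Genes were then read beside the peaks. Of 24312 gene symbols in the RNA table, 22101 had a transcript start on mm9. Of these, 1952 had a peak of the class within 50 kb and no GR peak within 50 kb, and are called linked genes, while 2777 had both. Only 565 had a peak of the class within 2 kb of a start and no GR peak within 50 kb, 70 of them with the forkhead core and 263 with the element in such a peak. RNA is given in RPKM, read density along the transcript relative to the depth of the library, and a gene was called higher or lower at a Benjamini-Hochberg (BH) adjusted p under 0.05 over all genes tested, with limma on log2(RPKM + 0.5). Fold changes are on that scale, which understates those of genes near 0, and errors are standard errors (SE).

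Several libraries stood apart. Summed hepatocyte markers (Alb, Apoa1, Ttr, Cps1, Hnf4a and Serpina1a) were between 2103 and 2618 RPKM in the 8 libraries of the L-IRSdKO experiment and between 28147 and 72923 in the other libraries, and none of these genes was at 0. Leaving out vehicle-injected unfed replicate 4 or L-GRKO replicate 3 moved several results, and values without them are given there. Nr3c1, the gene of GR, was at 3.93 to 5.35 RPKM in L-GRKO livers and at 12.8 to 16.2 in controls (log2 fold change -1.58 ± 0.12 SE, limma adjusted p = 6.8e-05). Irs1 was at 0.149 to 0.321 in L-IRSdKO livers and at 2.21 to 4.73 in controls, whereas the Irs2 values of the groups overlapped (log2 fold change -0.79 ± 0.50 SE, limma adjusted p = 0.31).

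Linked genes changed about as often as other genes in most comparisons. After the meal, 3.79% of the 1213 linked genes tested were higher and 1.40% lower in NRF mice, beside 4.87% and 1.90% of all genes. In vehicle-injected mice the meal raised 1.83% of 1255 and lowered 0.558%, beside 2.55% and 0.578% of all genes. S961 in fed mice gave 0.558% higher and 0.637% lower, beside 0.942% and 0.960%. In L-IRSdKO livers 8.33% of 1405 were higher and 5.48% lower (interval of the falls 4.41 to 6.80), beside 9.06% and 8.31%. Genes with neither a peak of the class nor a GR peak within 50 kb were lower there in 5.25%. In lean mice the meal gave 19.1% of 1280 higher (interval 17.1 to 21.4) and 6.41% lower, beside 16.1% and 7.28%. In obese mice it gave 6.17% and 2.42%, beside 5.17% and 2.48%. The intervals of the falls in L-IRSdKO livers and of the rises at the lean meal left out the background. The difference of the meal effect between obese and lean mice passed with limma upward in 0 of 1280 linked genes (interval up to 0.299%), beside 0.420% of all genes. Downward it passed in 2 (0.156%, interval 0.0429 to 0.568), beside 0.324%. The vehicle meal, S961 and dex comparisons share the fed vehicle mice, so their shares are not independent of each other.

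As ratios to the background, the largest gaps were for rises after dex and falls in L-GRKO livers, and genes with neither a peak of the class nor a GR peak within 50 kb had them too. Dex, which activates GR, was followed by a rise in 0.0797% of linked genes (1 of 1255, interval 0.0141 to 0.450) and by a fall in 2.07%, beside 1.00% and 2.19% of all genes and 0.124% and 1.67% of genes with neither peak. With the compared groups alone the shares of linked genes were 0 and 0. The rises were 0.637% without dex replicate 4, 0.160% without fed vehicle replicate 4 and 0 without any other library, and the falls were 0.478% to 1.11% without dex replicate 1 or 2 or fed vehicle replicate 1 or 2. Loss of GR in L-GRKO livers lowered 0.155% of the 1289 linked genes tested (interval 0.0426 to 0.564) and raised 3.10%, beside 2.22% and 4.46% of all genes and 0.142% and 1.75% of genes with neither peak. For genes with both a peak of the class and a GR peak within 50 kb, loss of GR lowered 4.14% and raised 7.50%. Without L-GRKO replicate 3 the shares of linked genes were 0.0777% and 1.55%. That linked genes have no GR peak within 50 kb is part of how they were chosen.

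Scaling the libraries to a common median ratio moved the median of all genes by -0.12 (log2) in the NRF meal, -0.10 in the vehicle meal, 0.07 for S961, 0.09 for dex, -0.08 for L-GRKO, -0.02 for L-IRSdKO, -0.08 in the lean meal and -0.03 in the obese meal. Of all calls, the percentage that were higher went from 72.0 to 48.0 in the NRF meal, from 81.5 to 51.6 in the vehicle meal, from 49.5 to 70.3 for S961, from 31.5 to 58.8 for dex, from 66.7 to 44.3 for L-GRKO and from 68.9 to 49.7 in the lean meal. The balance of rises and falls in these comparisons therefore depends on the scaling, and shares in 1 direction were read only against the background of the same comparison.

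Splitting promoter members by sequence, which was done after the sequences had been seen, gave different shares for genes with a forkhead core and genes with the element, a difference that was not tested. In lean mice the meal lowered 22.2% of 63 genes with a forkhead core in a promoter peak (interval 13.7 to 33.9) and 6.38% of 235 genes with the element (3.91 to 10.3), beside 7.28% of all genes. It raised 6.35% and 21.3%, beside 16.1%. Of 216 genes with neither sequence in a promoter peak, the meal lowered 7.41% (4.61 to 11.7) and raised 19.9% (15.1 to 25.7). These shares were near those of genes with the element. Under the alternatives tried, the share lowered stayed between 12.7% and 27.5% for the forkhead genes, with 23.8% after median-ratio scaling. With genes that also had a GR peak within 50 kb counted in, the share lowered was 18.7% of 171 (interval 13.6 to 25.2). The pattern was thus not confined to genes without a GR peak. In the same mice 6 endothelial markers summed to 42.3 to 48.9 RPKM fed and 57.6 to 69.3 unfed, with 4 of the 6 lower, and 7 Kupffer cell and macrophage markers to 42.7 to 57.5 and 56.6 to 69.4, with 0 called by limma, and their part in the shares was not tested. In obese mice the meal lowered 9.52% of the forkhead genes beside 2.48% of all genes, but 1.56% when the obese groups were fitted alone, 1.59% without fed obese replicate 2 and 3.17% without fed obese replicate 3.

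NRF mice showed the same order, on fewer libraries. The meal lowered 11.9% of 59 forkhead genes and 0.889% of 225 genes with the element, beside 1.90% of all genes, but with any 1 of the 4 libraries left out the share of forkhead genes lay between 0% and 8.20%, and without the filter on low values it was 0%. In L-IRSdKO livers 16.9% of 65 forkhead genes were higher and 3.08% lower, while 6.12% of 245 genes with the element were higher and 4.49% lower, beside 9.06% and 8.31% of all genes. With 1 library left out the share of forkhead genes that were higher ran from 7.69% (without L-IRSdKO replicate 3 or 4) to 18.5%. S961 and the vehicle meal each raised and lowered 1.61% of 62 forkhead genes, which is 1 gene in each direction, close to the backgrounds given above.

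**Figure D4:**
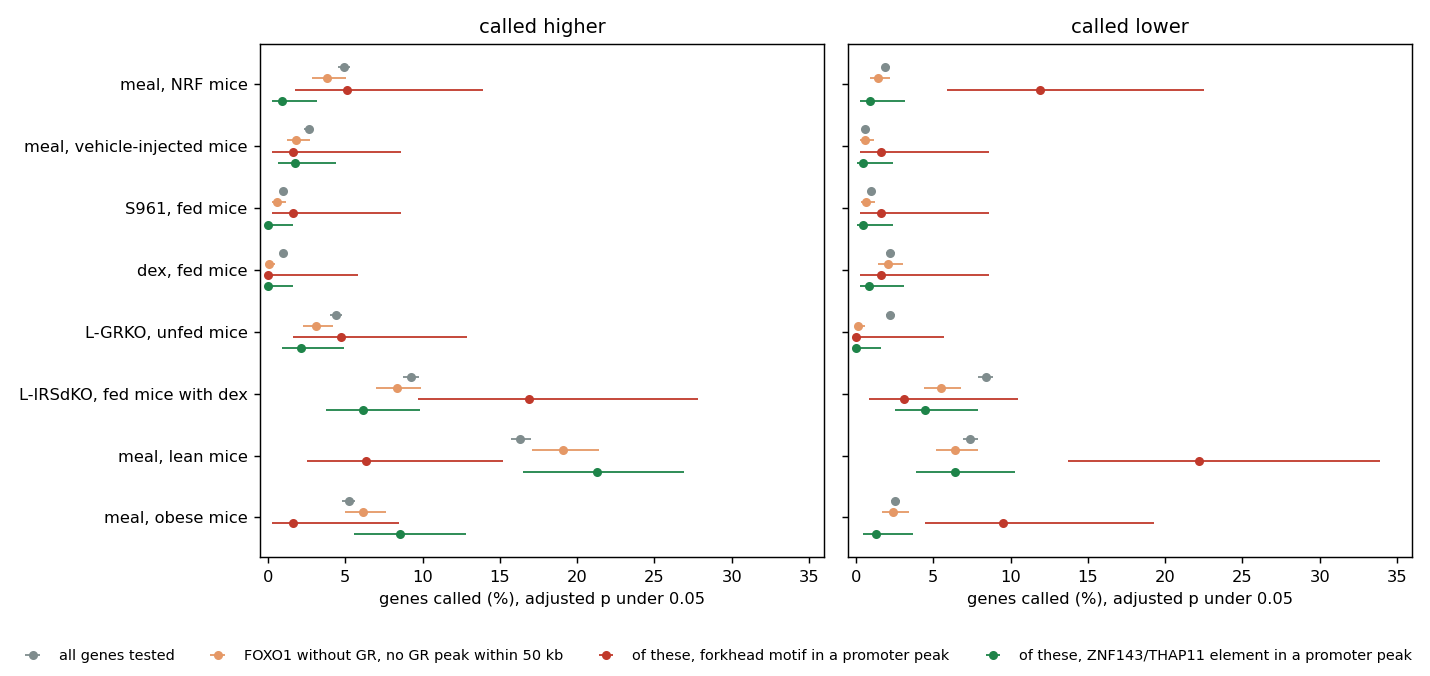
Share of tested genes (x axis, %) called higher (left) or lower (right) at a BH-adjusted p under 0.05 in 8 comparisons, with 95% Wilson intervals over genes as bars. Grey is all tested genes with an annotated start, orange linked genes, red and green linked genes with a forkhead core or the element in a promoter peak. Linked genes lie near all genes in most comparisons, and genes with a forkhead core are the most often lower after the meal in lean mice, at 22.2%.

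Il1rn, which encodes the secreted antagonist of the interleukin-1 receptor, had the largest rise after S961 and in L-IRSdKO livers among called genes with a peak of the class at the promoter and no GR peak within 50 kb. Its forkhead core is in the line shown above. In fed mice it was at 2.39, 2.12, 1.54 and 3.52 RPKM after S961 and at 0.211, 0.324, 0.233 and 0.587 after vehicle (log2 fold change 1.76 ± 0.26 SE, limma adjusted p = 0.0017). In L-IRSdKO livers it was at 5.67, 32.6, 37.9 and 24.7 RPKM, and in floxed controls at 0.228, 0.760, 1.13 and 0.827 (4.15 ± 0.54, adjusted p = 0.0033). Every S961 and L-IRSdKO library was above every library of its controls, but only genes whose groups did not overlap entered this ranking. Without the L-IRSdKO library at 5.67 the fold change there was 4.74.

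Markers of other cell types are given beside these values. Summed RPKM of 7 Kupffer cell and macrophage markers was 280 to 351 in L-IRSdKO livers and 163 to 299 in controls, and 52.5 to 77.1 after S961 against 79.0 to 115 in fed vehicle mice, with no marker at 0 in either case. With adjustment over all genes, 1 of the 7 was higher in L-IRSdKO livers, and 3 were lower after S961. In whole liver, fewer cells of a type and less RNA per cell cannot be told apart, and the part of these cells in the Il1rn values was not tested. Summed RPKM of 6 endothelial markers was 125 to 161 in L-IRSdKO livers against 97.4 to 122, with 4 of the 6 higher, and 60.8 to 66.1 after S961 against 68.3 to 77.1, with none at 0. In L-IRSdKO livers and controls, 5 cholangiocyte markers summed to 7.87 to 13.9 against 19.7 to 46.2, with 2 of the 4 tested lower, and 5 lymphocyte markers to 6.25 to 7.30 against 2.60 to 6.36, with 0 of the 2 tested called by limma.

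Tcp11l2, whose peak 328 bp upstream holds a forkhead core, fell most at the meal in lean mice among the forkhead genes. It was at 11.9, 13.0 and 13.5 RPKM in unfed lean mice and at 1.68, 2.69 and 1.74 in fed lean mice (log2 fold change -2.42 ± 0.26 SE, limma adjusted p = 0.00031). In NRF mice it was at 7.04 and 8.47 unfed and at 1.10 and 1.50 fed (-2.20 ± 0.25, adjusted p = 0.0066), and in obese mice at 13.4, 8.37 and 10.3 unfed and at 5.41, 4.85 and 2.41 fed (-1.29, adjusted p = 0.015). L-IRSdKO livers held 24.5, 28.8, 27.5 and 40.2 and their controls 12.8, 10.9, 20.1 and 12.7 (1.08 ± 0.20, adjusted p = 0.010). After S961 the values were 8.43, 16.8, 10.5 and 10.2 against 5.35, 6.68, 4.61 and 3.68 in fed vehicle mice, which did not overlap but did not pass (1.09 ± 0.34, adjusted p = 0.13). Both this difference and that of the vehicle meal passed with the replicate block. They also passed with a term that set replicate 4 of each injected group apart from the others, here called the single-replicate term. The vehicle meal difference was -0.97 (adjusted p = 0.13), and -1.32, past the threshold, without unfed replicate 4, which was at 4.68 when the others were at 12.8 to 13.6.

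Junb, a subunit of the AP-1 transcription factor, followed the same directions in part. It was at 6.89, 8.45 and 6.03 RPKM in unfed and 2.78, 5.17 and 3.60 in fed lean mice (log2 fold change -0.83 ± 0.21 SE, limma adjusted p = 0.014), and at 40.5 to 48.2 in L-IRSdKO livers against 15.8 to 24.8 in controls (1.14 ± 0.14, adjusted p = 0.0025). In fed injected mice it ranged from 1.93 to 26.5 after vehicle, and the S961 values overlapped these (-0.72 ± 0.67, adjusted p = 0.71). The lean meal call was lost when fed replicate 1 or unfed replicate 2 was left out.

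Other genes with a forkhead core at a promoter peak and no GR peak within 50 kb fell at the meal in lean mice by less. They include Nr1d2, which encodes the clock repressor REV-ERB beta (log2 fold change -1.16), Clk1, a kinase of splicing factors (-0.63), Tfdp2, a partner of E2F factors (-0.59), and Ap4m1, a subunit of the AP-4 adaptor (-0.55), with limma adjusted p between 0.0012 and 0.017. Clk1 was at 31.7, 31.6 and 37.7 RPKM unfed and at 22.7, 20.8 and 21.1 fed, with no overlap of the groups. The lean meal call of Tfdp2 was lost without fed replicate 1 or unfed replicate 2. The rises in L-IRSdKO livers took in Pnpla7, a lysophospholipase (0.82), Nhsl1 (0.78) and Pot1a, a telomere protein (0.75), which in the lean meal differed by -0.02, 0.24 and 0.03 and were not called. The Nhsl1 call was lost with the replicate block (0.78), without a filter and with 6 of the 8 single libraries left out, and the Pot1a call with 5 of them. These names were chosen after their values had been seen.

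**Figure D5:**
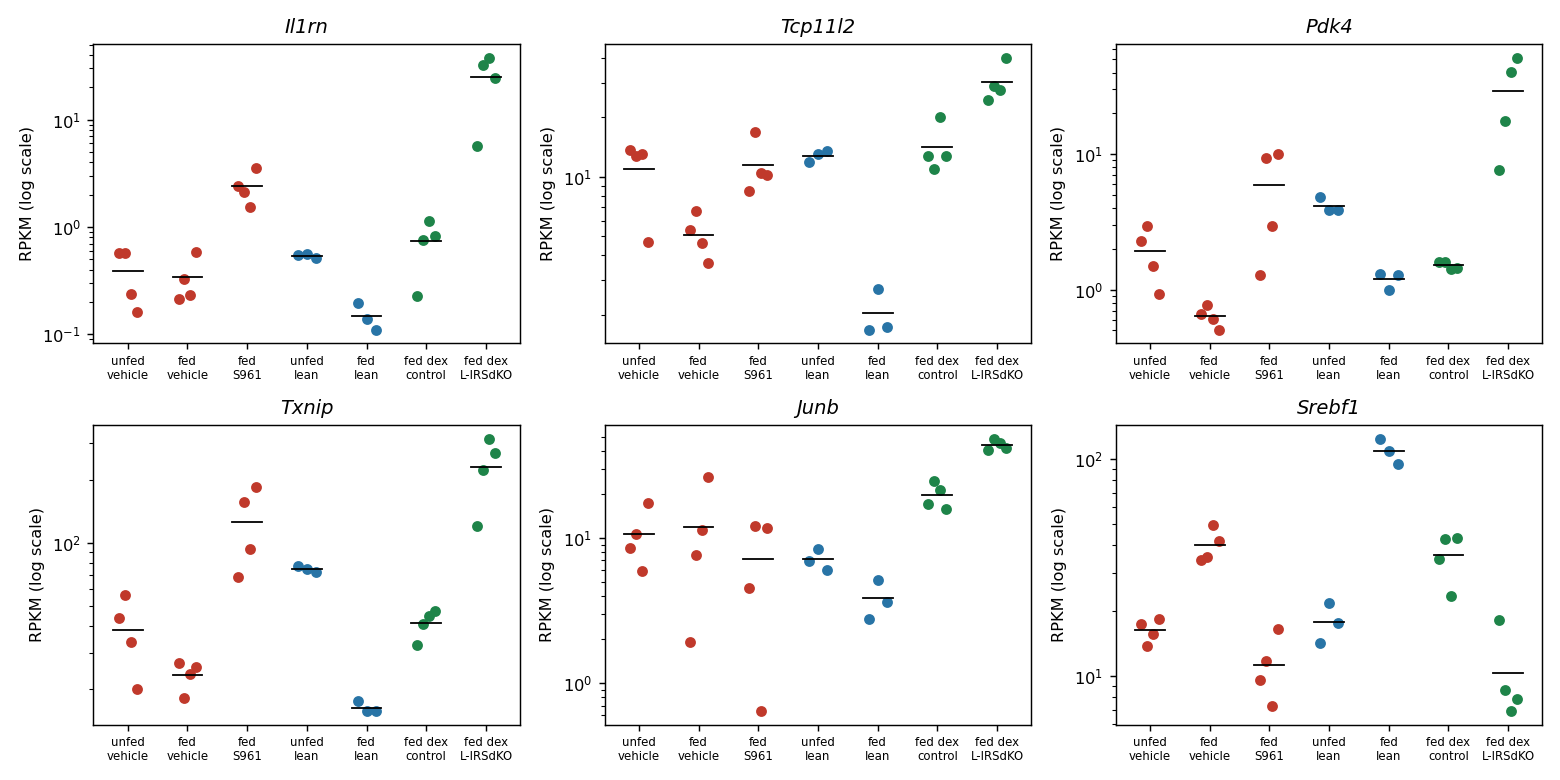
RNA in each library (points, RPKM, log scale on the y axis) with group means (lines) for 6 genes near FOXO1 peaks without GR, in injected mice (red), lean mice (blue) and the L-IRSdKO experiment (green). Il1rn is above its controls in every S961 and L-IRSdKO library, Tcp11l2 falls from 11.9 to 13.5 unfed to 1.68 to 2.69 fed in lean mice, and Srebf1 moves the other way from Txnip and Pdk4.

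S961 changed few other promoter genes, and by little. Tmem11, a mitochondrial inner membrane protein, was higher (log2 fold change 0.44), while Atp13a2, a lysosomal transporter with the element shown above (-0.60), Rnf145, a ubiquitin ligase with a forkhead core (-0.57), Osbp, an oxysterol-binding protein (-0.48), and Tbcel (-0.41) were lower, with limma adjusted p between 0.030 and 0.049. That values did not overlap between the groups was a condition for naming these genes. Each call was lost with any of several libraries left out, and the 4 falls were lost after median-ratio scaling. In L-IRSdKO livers Rnf145 went the other way, at 17.0 to 21.6 RPKM against 11.4 to 14.4 (0.62, adjusted p = 0.010).

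In L-IRSdKO livers the promoter genes with the largest changes held either sequence or neither. The rises were Il1rn, Fbxo32, the ubiquitin ligase atrogin-1 (1.24, at 1.46 to 3.50 RPKM against 0.435 to 1.29), Junb, Rab8b, a small GTPase with the element (1.13), and Tcp11l2. The falls were Sertad3 (-1.06), Ero1b, an oxidase of the endoplasmic reticulum (-0.98), Cep97, a centrosomal protein whose element is shown above (-0.93), Sec11c, a subunit of the signal peptidase (-0.91), and Ropn1l (-0.73), with limma adjusted p between 0.013 and 0.037. Ero1b, Cep97 and Sec11c held the element. Cep97 was at 1.01, 2.04, 0.660 and 1.37 RPKM against 2.71, 3.54, 2.34 and 2.45, and its call was lost with 7 of the 8 single libraries left out and with another RefSeq ID (-0.27). The Fbxo32 call was lost without L-IRSdKO replicate 2, 3 or 4, and the Sertad3 call with 5 of the 8 libraries left out.

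Over all genes, 1952 of 22101 were linked and 2777 had a peak of the class and a GR peak within 50 kb. Of 41 known FOXO target genes, 23 had a peak of the class within 50 kb, and Srebf1 and Fbxo32 of these had no GR peak within that distance. No gene of the gluconeogenesis list (18 genes), of the list of fatty acid oxidation and lipolysis (20) or of the classic GR targets (16) had a peak of the class without a GR peak within 50 kb. Of the insulin and FOXO pathway list (26), 4 did, among them Foxo4, Igf1r and Pik3ca, of lipogenesis (17) Acss2 and Srebf1, and of autophagy (25) Atg5, Gabarap and Tfeb.

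Srebf1, which encodes the lipogenic factor SREBP-1, was the linked gene of these lists with the largest changes. Its peak lay 18097 bp from its start, within 2 kb of the start of another annotated transcript, and held a forkhead core. The gene was at 14.2, 21.7 and 17.5 RPKM in unfed lean mice and at 124, 109 and 94.8 in fed lean mice (log2 fold change 2.60 ± 0.27 SE, limma adjusted p = 0.0003). In fed mice it was at 9.57, 11.7, 7.28 and 16.5 after S961 and at 34.3, 35.2, 49.6 and 42.1 after vehicle (-1.84 ± 0.22, adjusted p = 0.00052). L-IRSdKO livers held 18.1, 8.59, 6.90 and 7.82 and controls 34.7, 42.7, 23.4 and 43.4 (-1.82 ± 0.30, adjusted p = 0.0068). Groups did not overlap in any of the 3 comparisons, and the directions were opposite to those of Tcp11l2.

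Known FOXO targets with a peak of the class, with or without GR nearby, were more often called than all genes in 3 comparisons. After S961, 4 of 22 tested were higher and 1 lower, with a median log2 fold change of 0.24, beside 0.942% and 0.960% of all genes. In L-IRSdKO livers 9 of 23 were higher and 2 lower (median 0.34), beside 9.06% and 8.31%, and at the meal in lean mice 1 of 22 was higher and 13 were lower (median -0.77), beside 16.1% and 7.28%. The corresponding medians of all genes were -0.08, 0.03 and 0.08. Over the whole list of 41, the counts were 4 higher and 3 lower, 15 and 4, and 5 and 21. Foxo1 itself had no peak of the class within 50 kb, and was at 15.2, 15.4 and 13.4 RPKM in unfed and 6.39, 5.13 and 6.45 in fed lean mice (-1.23 ± 0.15, limma adjusted p = 0.0006).

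Pdk4, whose kinase switches off pyruvate dehydrogenase in fasting, had a peak of the class 320 bp upstream with the forkhead core shown above, but also 6 GR peaks within 50 kb. It was at 7.61, 17.5, 40.7 and 51.6 RPKM in L-IRSdKO livers and at 1.42 to 1.59 in controls (log2 fold change 3.56 ± 0.51 SE, limma adjusted p = 0.0043). After S961 it was at 1.28, 9.43, 2.94 and 10.0 against 0.505 to 0.764 (2.16 ± 0.56, adjusted p = 0.056), which missed the threshold without an overlap of the groups. It passed with the replicate block, the single-replicate term, a pseudocount of 0.1 (2.62) and without S961 replicate 1 (2.65). In lean mice it was at 4.80, 3.87 and 3.85 unfed and at 1.30, 1.00 and 1.29 fed (-1.46 ± 0.41, adjusted p = 0.027), a call that was lost whichever of the 6 libraries was left out.

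Txnip, Angptl4 and G6pc had peaks of the class at a distance and GR peaks as well. Txnip, which limits glucose uptake, rose after S961 from 18.2 to 26.8 RPKM to 68.4 to 184 (log2 fold change 2.30 ± 0.38 SE, limma adjusted p = 0.0042) and in L-IRSdKO livers (2.39). Angptl4, an inhibitor of lipoprotein lipase with the distal forkhead core shown above, fell at the meal in lean mice from 114 to 121 RPKM to 16.0 to 20.7 (-2.63 ± 0.22, adjusted p = 0.00014) and rose after S961 (1.64). G6pc, the last enzyme of glucose release, fell at the meal in lean mice from 448 to 507 RPKM to 97.1 to 150 (-2.09 ± 0.36, adjusted p = 0.0026) and rose after S961 (1.80) and in L-IRSdKO livers (0.98). The meal effect in obese minus that in lean mice was 2.49 (log2) for Angptl4, 2.56 for G6pc and -2.33 for Srebf1, with limma adjusted p for the difference of 0.0076, 0.047 and 0.022.

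Several genes of fat use near the peaks were higher after S961. On the fatty acid oxidation and lipolysis list, 11 genes had a peak of the class within 50 kb. All 11 also had a GR peak within 50 kb, and the part of either kind of peak was not tested. Of the 11, 5 were higher and 0 lower (median log2 fold change 0.61), beside 0.942% and 0.960% of all genes. Among them were Acot1, an acyl-CoA thioesterase (1.47), Fgf21, a fasting hormone (2.53), and G0s2, an inhibitor of the lipase ATGL (2.16). In L-IRSdKO livers 5 of the 11 were higher and 1, G0s2, was lower (-1.87), beside 9.06% and 8.31% of all genes. G0s2 thus moved in opposite directions in the 2 comparisons. Of the lipogenesis list, 10 genes had a peak of the class within 50 kb, with 1 higher and 2 lower after S961 and 2 higher and 5 lower in L-IRSdKO livers. Elovl5, a fatty acid elongase, was higher after S961 (1.11) and in L-IRSdKO livers (1.28), and Insig1, which retains SREBP in the endoplasmic reticulum, was lower in both (-1.26 and -1.04). With the 2 injected groups fitted alone, the S961 calls of Acot1, Elovl5, Fgf21, G0s2, G6pc and Insig1 were lost.

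Autophagy genes near the peaks changed little, with 0 of 10 called after S961, 1 higher in L-IRSdKO livers and 2 lower at the lean meal. The same counts were 0 of 13, 2 of 14 higher and 1 higher and 8 lower of 13 for the insulin and FOXO pathway, 1 higher, 1 higher and 1 lower, and 3 lower of 7 for gluconeogenesis, and 0, 0 and 3 lower of 7 for classic GR targets. Of all genes, 0.942% were higher and 0.960% lower after S961. The shares were 9.06% and 8.31% in L-IRSdKO livers and 16.1% and 7.28% at the lean meal. Genes with the most peaks of the class within 50 kb were not called. Plekha4, Ranbp10 and Tsnaxip1 had 7 each, and Cenpt and Hsd17b14 had 6. Ranbp10, Tsnaxip1 and Cenpt had no GR peak within 50 kb and the ZNF143/THAP11 element in their nearest peak. These genes are neighbours on chromosome 8, and the nearest peak of Ranbp10 and Tsnaxip1 is the same one (chr8:108351170-108351349). That of Cenpt starts at chr8:108375877. Plekha4 and Hsd17b14 are neighbours on chromosome 7, with nearest peaks from chr7:52781582 and chr7:52823457. Their counts of peaks are thus not separate cases. Ranbp10 differed by 0.17 (log2) after S961, by -0.10 in L-IRSdKO livers and by -0.17 at the lean meal, Cenpt by 0.00, 0.49 and 0.10, and neither was called in a comparison in which it was tested (8 for Ranbp10 and 7 for Cenpt, which was below the filter in NRF mice), while Tsnaxip1 and Hsd17b14 were below the filter in every experiment and Plekha4 passed it in the L-IRSdKO experiment only (0.01).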

How the data were processed

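The deposited peak lists hold positions only, on mm9. Per the study's methods, the authors called FOXO1 and GR peaks with HOMER, kept those found in both replicates, and called DHSs on all DNase reads together, fed and unfed. The deposited RNA values are RPKM per RefSeq ID, made by the authors, with STAR and DESeq2 among the tools in the submitters' processing notes (no version given there). Read numbers per library are listed by the study and were not used here; 23127 to 26690 of 35707 IDs were above 0 in each of 54 libraries. RNA of the NRF mice was ribo-depleted and that of the others poly(A)-selected, so experiments were fitted apart.

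Peaks were placed against 86949 transcript starts of GENCODE vM1, and 21 motifs were sought on both strands in 200 bases around each centre. The element, TGTTGAC and the split of promoter genes by motif were added after words of 8 bases had been scanned. Sequences are from the NCBIM37 genome, which is mm9. Of the RefSeq IDs, 35407 matched a symbol (2318 symbols by an older name), and the ID with the highest mean was kept per symbol. Genes whose mean in an experiment reached 0.5 RPKM were tested on log2(RPKM + 0.5) with limma 3.58.1 (R 4.3.3, mean-variance trend), two-sided, with BH adjustment over all genes tested. Shares have 95% Wilson intervals. Other work used Python 3.11.15, pandas 2.3.3, scipy 1.17.1 and numpy 2.4.6. The fits were tested on simulated data.

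Groups and replicate numbers came from the labels. Replicate numbers were not taken as pairs, because same-numbered libraries did not deviate together in every pair. Named were genes of pathway lists with a peak of the class within 50 kb that were called in the S961, L-IRSdKO or vehicle meal comparison (up to 12, by S961 p), up to 5 largest rises and falls after S961 and in L-IRSdKO livers among promoter genes without GR within 50 kb, the 5 genes with the most peaks, and reference genes. These rises and falls were taken only from called genes whose values did not overlap between the groups compared. The peaks, lists and rules were chosen with earlier results of these data known. Alternatives were another pseudocount, filter, scaling, threshold, distance, ID, trend, sample set, block and each library left out. A few genes that the rules name are not reported here.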

Additional observations from a re-analysis of the deposited data

Results flagged for a closer look

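In groups of 4, a library was marked where its gap to the nearest other exceeded Dixon's critical value, which chance does in about 1 in 20 groups. Many named genes were looked at, and the marks below were not set against the number that chance would give. Among L-IRSdKO libraries, the highest for Srebf1 was at 18.1 RPKM (median of the others 7.82), for G0s2 at 42.2 (15.6), for Sec11c at 36.5 (25.4), for Nhsl1 at 7.49 (5.02) and for Irs1 at 0.321 (0.155), and the lowest for Pnpla7 was at 24.7 (40.9) and for Irs2 at 0.272 (0.932). Among their floxed controls the lowest for Irs1 was at 2.21 (4.70), and the highest for Rnf145 was at 14.4 (11.5).

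In injected mice, the lowest unfed vehicle library was at 4.68 RPKM for Tcp11l2 (13.0), at 10.8 for Nr1d2 (17.9) and at 27.2 for Clk1 (32.0). The lowest S961 library for Sertad3 was at 1.18 (1.79).

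The effect of the meal differed between obese and lean mice in 3 named genes by the limma interaction. Obese minus lean, it was -2.33 (log2, limma adjusted p = 0.022) for Srebf1, 2.49 (adjusted p = 0.0076) for Angptl4 and 2.56 (adjusted p = 0.047) for G6pc.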

How the results depend on the processing

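Of the position and sequence values, the share of peaks within 2 kb of a start was 36.7% when at least 90 bp had to lie in a DHS, 34.3% for 1 kb and 38.1% for protein-coding starts (40.0% as reported). In a window of 100 bases 18.3% held the forkhead core and 3.57% the GR palindrome (24.3% and 6.56%), and 40.8% held the shorter TGTTTA.

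Shares of linked genes follow, here and below, as percent higher and lower. The shares of all genes under the same settings are not given, so these values do not show whether linked genes moved apart from other genes. At an adjusted p of 0.01 they were 0.495 and 0.165 in the NRF meal, 0.239 and 0 in the vehicle meal, 0.159 and 0.0797 for S961, 0 and 0.319 for dex, 0.543 higher for L-GRKO, 1.85 and 1.28 for L-IRSdKO, 7.73 and 2.27 in the lean and 1.02 and 0.234 in the obese meal. With the compared groups alone they were 0.158 lower in the vehicle meal, 0.158 and 0.0791 for S961, 0 and 0 for dex, and 0.389 and 0.0777 in the obese meal. At a filter of 2 RPKM they were 7.46 higher in the NRF meal, 4.34 higher for L-GRKO, 21.9 higher in the lean and 9.27 and 3.89 in the obese meal. Without a filter they were 0.277 and 0.0553 in the NRF meal, 0.969 and 0.171 in the vehicle meal, 0 and 1.08 for dex, 0.908 higher for L-GRKO, 5.38 and 3.89 for L-IRSdKO, 12.3 and 3.44 in the lean and 2.66 and 1.16 in the obese meal. Median-ratio scaling gave 2.56 higher in the NRF meal, 0.717 higher in the vehicle meal, 0.239 lower for S961, 0.717 lower for dex, 1.32 and 0.776 for L-GRKO, 7.19 lower for L-IRSdKO, 12.1 and 8.52 in the lean and 4.92 higher in the obese meal. The single-replicate term gave 6.37 and 1.59 in the vehicle meal, 1.20 and 1.91 for S961 and 7.17 lower for dex. Without the trend, L-GRKO gave 2.25 higher and L-IRSdKO 4.27 lower. At 100 kb dex gave 0 higher. Where the cause is not the construction of the alternative, it was not tested.

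Same-numbered libraries correlated between -0.20 and 0.61, so that numbers were not taken as pairs. The replicate block gave 2.23 higher in the NRF meal, 5.90 and 1.35 in the vehicle meal, 1.43 and 1.67 for S961, 6.53 lower for dex, 1.47 higher for L-GRKO, 4.48 and 3.13 for L-IRSdKO and 16.7 higher in the lean meal. Calls over all genes moved with the block too. They went from 287 higher and 65 lower to 756 and 172 in the vehicle meal. For dex they went from 113 and 246 to 240 and 728, and in the NRF meal from 531 and 207 to 311 and 153. The number of linked genes whose meal effect differed between obese and lean mice (2) was 0 with the replicate block and without a filter, 1 after scaling, and 0 to 7 with 1 library left out.

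With 1 library left out, the higher and lower shares ranged from 0.0828 to 3.37 and 0 to 1.64 in the NRF meal, 0.478 to 2.00 and 0 to 0.878 in the vehicle meal, 0.239 to 0.879 and 0.160 to 1.04 for S961, 0 to 0.637 and 0.478 to 2.71 for dex, 0.774 to 3.73 and 0.0774 to 0.233 for L-GRKO, 3.49 to 10.8 and 2.99 to 8.13 for L-IRSdKO, 12 to 15.8 and 3.59 to 5.39 in the lean, and 1.17 to 6.16 and 0.391 to 3.28 in the obese meal. Of the alternatives for named genes, 2673 kept the side of the threshold, 173 lost the call and 34 gained one. In genes that were not called the sign could change. Foxo1 in L-IRSdKO livers went from -0.50 to 0.07 without L-IRSdKO replicate 1. RPKM and peak positions carry no counts, so precision comes from the spread of 2 to 4 samples per group.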
